A study of Mus musculus with 10 samples.

Results

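A set of 8 genes known for marking the alpha and delta cells of pancreatic islets was followed, out of the 17945 named genes in the deposited table. They were chosen by name: Irx1, Irx2, Gc, Fev, Slc7a2 and Slc38a5 for alpha cells, and Hhex and Rbp4 for delta cells. All 8 had a row, and all 8 passed the filter on low values that left 11711 genes for testing. Islet RNA was sequenced from C57BL/6 mice at 18 weeks of age. By their labels, the 5 knockout libraries came from animals with the inducible Cre driver Pdx1-CreER and Grk5 flox/flox alleles, and the 5 control libraries from Grk5 flox/flox animals for which no driver is given. As labelled, the groups differ by the driver as well as by the deletion, and the effects of driver and deletion cannot be told apart here. The values of Esr1 given below were high in 2 controls, although their labels give no driver. Pdx1, whose promoter drives the Cre, is made in adult beta cells and also in part of the delta cells.

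Alpha cells release glucagon, which raises blood glucose, and delta cells release somatostatin, which restrains both alpha and beta cells. Each type keeps its identity through its own transcription factors, and alpha cells in addition take up amino acids that drive glucagon release and alpha cell growth. In whole islets both types are minorities among insulin-producing beta cells, so their transcripts are diluted. In such bulk samples, fewer cells of a type and less RNA per cell cannot be told apart.

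The label of the tissue was checked first. Ins1 and Ins2, the mouse insulin genes, took 12.3% to 17.8% of each library's total of normalized counts, Gcg (glucagon) 0.883% to 1.53%, and Sst (somatostatin) 0.126% to 0.215%. Totals ran from 5534386 to 7358040 normalized counts, and 10222 to 14632 genes were above 0. The commonest low value of a library, which may stand for 1 read, was 3.55 in knockout 1, the library with the fewest genes, and 0.527 in knockout 3. Grk5 overlapped between the groups, at 94.4 to 269.8 in knockouts and 127.9 to 386.9 in controls. Esr1, whose ligand-binding part belongs to CreER proteins, was 1516.7 to 3176.8 in knockouts but also 2495.0 in control 2 and 773.5 in control 5, against 0.0 to 10.5 in the other 3 controls. The libraries labelled control 2 and control 5 thus had Esr1 that the other controls lacked or nearly lacked. They were also the 2 lowest controls for Grk5, at 165.0 and 127.9, against 197.0, 386.9 and 331.8 in controls 1, 3 and 4. Control 1 also lay within the knockout range of Grk5. The groups below are those of the labels. The summed level of 16 acinar markers ran from 32167 to 81667 in knockouts and from 22596 to 235292 in controls, with control 2 the lowest and control 4 the highest of all 10 libraries.

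Of the 8 genes, Gc had the largest log2 fold change upward in the knockouts and the smallest p. It encodes the vitamin D-binding protein, a plasma carrier best known from liver that alpha cells also make and that, in mice, shapes their identity and glucagon release. It has also been described in mouse beta cells that lose their identity. In GRCm38 it occupies chromosome 5, 89417522 to 89457898, minus strand. Its normalized counts were 709.9, 402.4, 855.3, 774.0 and 923.3 in knockouts 1 to 5, against 355.1, 205.8, 357.1, 409.9 and 400.8 in controls 1 to 5. Knockouts 1, 3, 4 and 5 lay above every control, while knockout 2 lay just below control 4, so the groups overlapped by that 1 library. The means were 733 ± 202 in knockouts and 346 ± 82.1 in controls (SD, n = 5 each).

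The log2 fold change of Gc, on the log2(value + 8) scale, was 1.05 ± 0.29 (SE), with 95% limits of 0.44 to 1.67. It ranked 26 by p among 11711 genes (limma, unadjusted p = 0.00205, adjusted p = 0.896) and so did not pass the threshold of 0.05 after adjustment over all genes. For Gc the authors' deposited table has 1.09 on the log2 scale and 0.0980 as adjusted p. With single libraries left out the log2 fold change ran from 0.88 without control 2 to 1.25 without knockout 2. Controls 2 and 5, which had Esr1, were the lowest (205.8) and the second highest control (400.8) for Gc. Without these 2 controls its log2 fold change was 0.90 (limma, unadjusted p = 0.0120, adjusted p = 0.999), where 4.3% of all genes were under an unadjusted p of 0.05. Controls 2, 3 and 5 differed from all other libraries in the form of their values, as given below for Slc7a2. Without these 3 controls Gc was at 0.87 (limma, unadjusted p = 0.0365, adjusted p = 0.999), where 440 of 11711 genes were under an unadjusted p of 0.05.

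Hepatocyte genes were near 0 in these libraries. Alb, the albumin gene, was listed at 0 in all 5 knockouts and at 0.0 to 10.1 in controls, and 4 hepatocyte markers summed to 0.0 to 67.4 in knockouts and 16.6 to 43.5 in controls. Of 10 beta cell genes tested, 0 had higher values and 10 lower values in the knockouts, with a median log2 fold change of -0.22, beside 52.4% lower over all genes. Ins2 (-0.009), G6pc2 (-0.035), Iapp (-0.059) and Ins1 (-0.083) lay near the median of -0.03 over all genes. The 16 acinar markers tested were all lower too, with a median of -0.91. Of the beta cell genes, the glucose transporter gene Slc2a2 was under an unadjusted p of 0.05 by limma (log2 fold change -0.49 ± 0.17, adjusted p = 0.942), as were 5.01% of all genes. The part of these beta cell values in the result for Gc was not tested.

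Set against glucagon, Gc separated the groups. Per 1000 counts of Gcg, Gc was at 10.9, 6.67, 11.9, 8.42 and 10.4 in knockouts 1 to 5, against 5.0, 2.25, 4.58, 5.83 and 4.15 in controls 1 to 5. All 5 knockouts lay above the highest control. The means were 9.66 ± 2.09 in knockouts and 4.36 ± 1.33 in controls (SD, n = 5 each). Of all 11711 genes divided by Gcg in this way, 0.794% had groups that did not overlap, and 0.546% were higher in all knockouts. The alpha cell gene Ttr, described below, was among the latter too, so this separation was not particular to Gc. With log2(Gcg + 8) as a covariate, the log2 fold change of Gc was 1.11 (limma, unadjusted p = 0.00201, adjusted p = 0.912), where 5.13% of all genes were under an unadjusted p of 0.05.

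**Figure D1:**
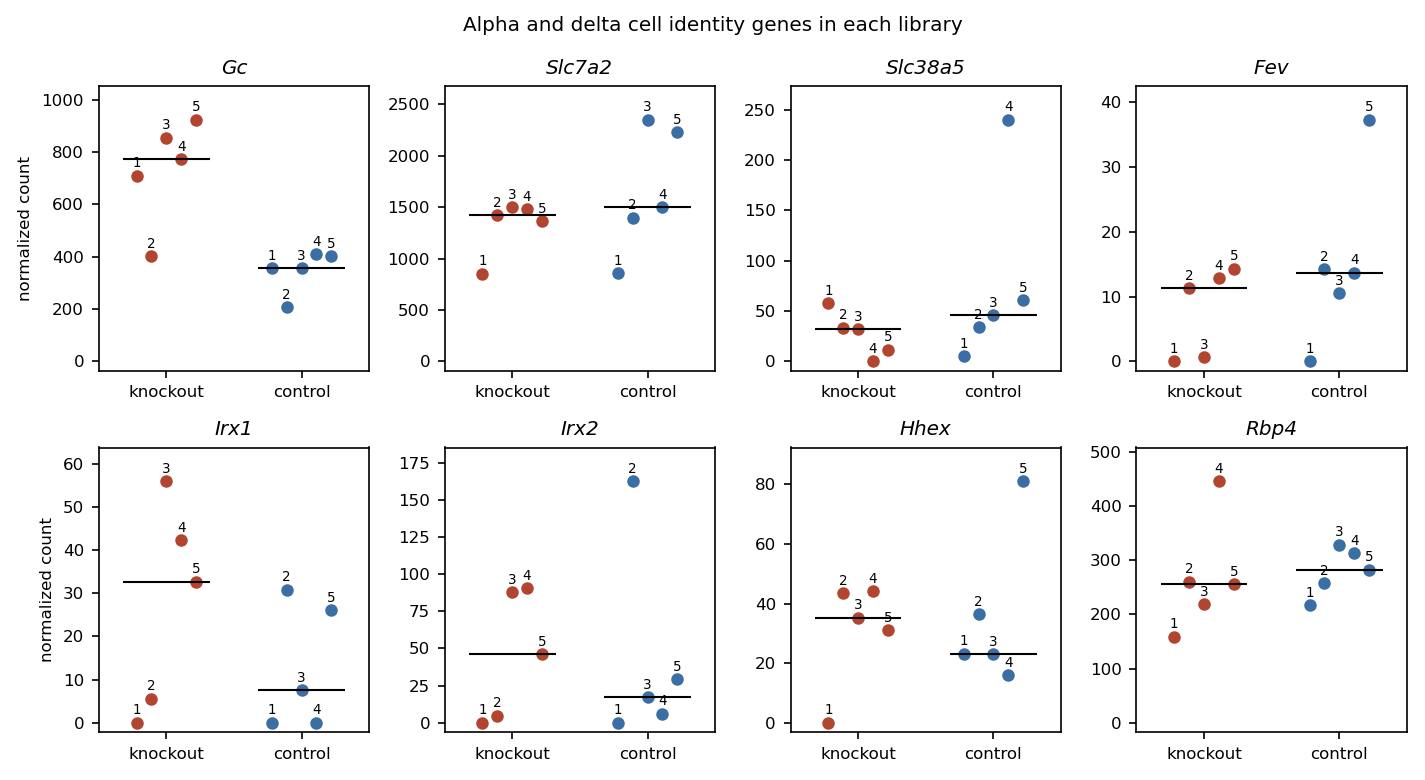
Normalized counts of the 8 genes (y axis, linear, each panel on its own scale) in 5 knockout (red) and 5 control (blue) libraries, numbered by replicate, with the median as a line. Gc is above every control in 4 of 5 knockouts, while the other 7 genes overlap more widely and Irx1, Irx2, Fev, Slc38a5 and Hhex include libraries at 0.

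**Figure D2:**
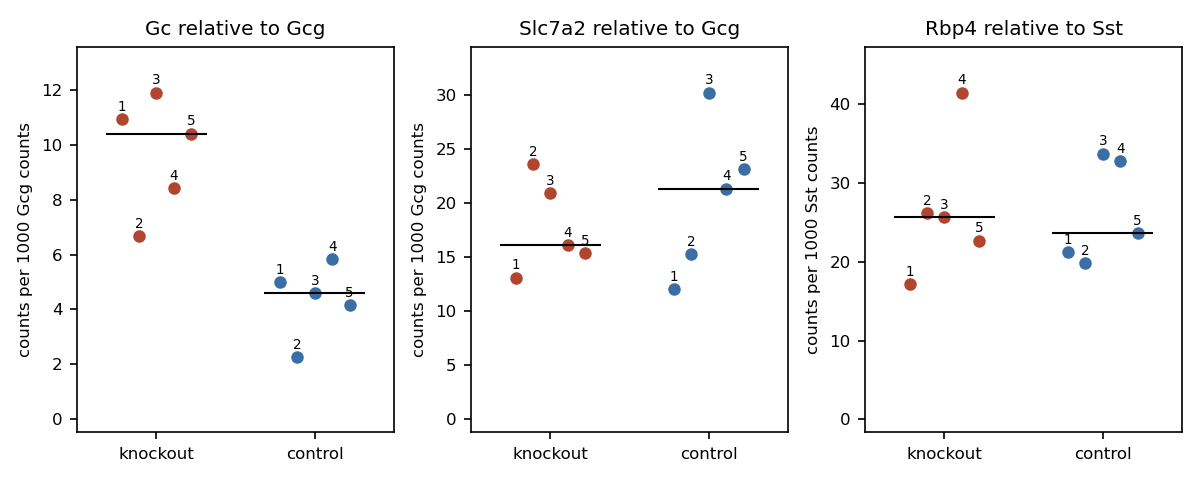
Counts of Gc and Slc7a2 per 1000 Gcg counts and of Rbp4 per 1000 Sst counts (y axes, linear) in 5 knockout (red) and 5 control (blue) libraries, numbered by replicate, with the median as a line. For Gc the lowest knockout (6.67) is above the highest control (5.83), while Slc7a2 and Rbp4 overlap.

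The sequences just upstream of these genes differ in kind, and are shown for the gene with the clearest difference in level and for a transcription factor gene of each cell type. The set of RefSeq (GRCm38.p6) starts used here held 6 of the 8 genes, the exceptions being Irx1 and Slc7a2. The 250 bases before the start, read 5′ to 3′ on the gene's strand, are at chr5:89457899-89458148 (minus strand) for Gc, chr13:72628570-72628819 (plus strand) for Irx2 and chr19:37434591-37434840 (plus strand) for Hhex. Capitals mark CG dinucleotides and, in Gc, a match to GTTAAT.
Gc: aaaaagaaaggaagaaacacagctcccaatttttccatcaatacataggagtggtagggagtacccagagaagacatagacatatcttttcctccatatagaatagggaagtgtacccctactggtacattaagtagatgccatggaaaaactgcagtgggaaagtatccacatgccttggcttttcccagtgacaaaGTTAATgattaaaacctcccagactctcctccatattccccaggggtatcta
Irx2: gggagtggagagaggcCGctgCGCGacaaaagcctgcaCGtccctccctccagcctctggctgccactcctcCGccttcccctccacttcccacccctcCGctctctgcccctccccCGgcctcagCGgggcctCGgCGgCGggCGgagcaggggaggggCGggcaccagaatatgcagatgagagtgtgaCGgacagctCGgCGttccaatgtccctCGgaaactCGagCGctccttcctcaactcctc
Hhex: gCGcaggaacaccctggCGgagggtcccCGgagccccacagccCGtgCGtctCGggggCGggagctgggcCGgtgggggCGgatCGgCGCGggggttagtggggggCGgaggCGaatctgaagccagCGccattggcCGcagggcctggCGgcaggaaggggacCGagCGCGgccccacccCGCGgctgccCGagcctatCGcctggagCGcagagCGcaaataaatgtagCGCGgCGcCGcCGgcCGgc
The Gc window held 0 CG dinucleotides with 42.0% G or C, against 19 CG with 68.4% in Irx2 and 32 CG with 76.0% in Hhex. The median over 32851 RefSeq windows of the same length was 6 CG. Of the windows not printed, that of Fev held 22 CG and that of Slc38a5 held 8. Those at different starts of Rbp4 held 28 and 5, so starts of a single gene also differed. GTTAAT, searched on both strands, is a core of the motif bound by HNF1 factors of liver, kidney and pancreas. It was in 6.43% of the 32851 windows and, of the 3 printed, in that of Gc alone, 46 bases before the start. A match of letters is a description, and binding was not measured.

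Irx1 and Irx2 encode Iroquois homeodomain transcription factors that, within the islet, mark alpha cells. They are neighbours on chromosome 13, Irx1 from 71957921 to 71963723 on the minus strand and Irx2 from 72628820 to 72634198 on the plus strand, 665 kb apart. Irx1 was at 0.0, 5.6, 55.9, 42.3 and 32.7 normalized counts in knockouts 1 to 5, against 0.0, 30.8, 7.5, 0.0 and 26.1 in controls 1 to 5. Irx2 was at 0.0, 4.8, 87.7, 90.6 and 46.2 in knockouts 1 to 5, against 0.0, 162.5, 17.3, 6.2 and 29.4 in controls 1 to 5. Knockouts 3, 4 and 5 were high for both genes, and so was control 2, while knockout 1 and control 1 were listed at 0 for both. The groups overlapped for both genes. Knockout 1 was also the library with the fewest genes above 0, and the part of its depth in these zeros was not tested.

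By limma, Irx1 had a log2 fold change at 0.69 ± 0.75 (SE; adjusted p = 0.964) and Irx2 at 0.30 ± 0.91 (SE; adjusted p = 0.982). The 95% limits, -0.89 to 2.27 for Irx1 and -1.61 to 2.22 for Irx2, allow large differences either way. Without controls 2 and 5 the log2 fold changes were 1.43 for Irx1 and 1.30 for Irx2 (adjusted p = 0.999 for both by limma). The direction of Irx2 turned without control 1 (-0.15), knockout 3 (-0.061) or knockout 4 (-0.072), and single omissions moved Irx1 between 0.38 without knockout 3 and 1.12 without knockout 1.

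Across the 10 libraries the pair varied together. Among 11710 other genes, Irx2 was the gene whose log2 values had the highest Pearson correlation with those of Irx1 (Pearson r = 0.93, Spearman rho = 0.88, n = 10 libraries), and by Pearson r Irx1 was the one most like Irx2. By Spearman rho Gm20449 stood closer to Irx2 (0.92) than Irx1 did (0.88). Knockout 1, control 1 and control 4, all listed at 0, were tied as farthest from the median of Irx1. Without controls 1 and 4, picked by their order alone, r between the pair was 0.91. That is below the 0.93 of Ppp1r17 with Irx1 over the same 8 libraries, so Irx2 did not head that ranking. Control 2, then control 1 tied with knockout 1, lay farthest from the median of Irx2. Without controls 1 and 2, r between the pair was 0.96, against 0.89 for Gm20449 with Irx2. Other choices among tied libraries were not tried. The libraries share their depth, zeros included, and since the pair heads a ranking the correlation is given as a description with no p.

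Fev, on chromosome 1 (74881509 to 74885419, minus strand), encodes an ETS transcription factor that marks islet endocrine progenitors and controls serotonin neurons. It was at 0.0, 11.3, 0.6, 12.8 and 14.3 normalized counts in knockouts 1 to 5, against 0.0, 14.2, 10.5, 13.7 and 37.3 in controls 1 to 5. Control 5 was the highest, and the other libraries were at or below 14.3 whatever their group. In multiples of each library's commonest low value, Fev ran from 0.0 to 13.5 in knockouts and from 0.0 to 28.6 in controls, so few reads stand behind it. By limma its log2 fold change came to -0.48 ± 0.64 (SE; adjusted p = 0.969), and to -0.04 without controls 2 and 5. Of the 5 serotonin genes listed, the synthesis enzyme gene Tph1 was at 112.5 in knockout 4. It was at 0.0 to 11.8 in the other knockouts and 0.0 to 7.0 in controls. Tph2 was at 0.0 to 30.6 in knockouts and 0.0 to 36.8 in controls. Slc18a2 was at 0.0 to 127.8 in knockouts and 0.0 to 114.9 in controls, and Slc6a4 at 0.0 to 2.1 and 0.0 to 25.2. Ddc, the only serotonin gene that passed the filter, overlapped between the groups (log2 fold change 0.27 ± 0.23, SE, adjusted p = 0.955 by limma).

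Slc7a2 had the highest counts of the 8 genes. It encodes a transporter of arginine and other cationic amino acids, which trigger glucagon release. The gene is on chromosome 8 (40862396 to 40922308, plus strand). Its normalized counts were 851.4, 1420.8, 1502.6, 1480.2 and 1363.3 in knockouts 1 to 5, against 854.7, 1396.6, 2350.9, 1498.0 and 2228.5 in controls 1 to 5. Knockout 1 and control 1 were alike and low, controls 3 and 5 were high, and the other 6 libraries lay close together. The means were 1324 ± 270 in knockouts and 1666 ± 621 in controls (SD, n = 5 each). Limma put the log2 fold change at -0.27 ± 0.25 (SE; adjusted p = 0.963), with 95% limits of -0.80 to 0.27.

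Slc7a2 was -0.49 without control 1 (unadjusted p = 0.0480, adjusted p = 0.981 by limma), -0.12 without knockout 1, and 0.20 without controls 2, 3 and 5. In these 3 controls 10.2% to 11.9% of values lay midway between multiples of the commonest low value, against 1.2% to 1.44% in the other 7 libraries. Those 7 include every knockout, so this difference in the values varied with the groups for all genes. Per 1000 Gcg counts, Slc7a2 averaged 17.8 ± 4.29 in knockouts and 20.4 ± 7.07 in controls (SD, n = 5 each). A long noncoding gene, Gm26584, is annotated on the opposite strand over the start of Slc7a2. The kit kept strand, but the sources used here do not say whether counting used it, so reads of that part are uncertain.

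Slc38a5, on the X chromosome (8271133 to 8280179, plus strand), encodes a transporter of glutamine and other neutral amino acids. In mice it is induced in alpha cells that divide when glucagon signalling is blocked, and it is also made in exocrine pancreas. It was at 57.7, 33.5, 31.8, 0.0 and 11.6 normalized counts in knockouts 1 to 5, against 4.9, 33.7, 45.5, 239.9 and 60.9 in controls 1 to 5. Control 4 stood far above the rest and knockout 4 was listed at 0. By limma its log2 fold change came to -0.97 ± 0.82 (SE; adjusted p = 0.955), and ran with single omissions from -1.49 without control 1 to -0.43 without control 4.

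Control 4 was also the library with the most acinar RNA. The summed acinar markers were 32167, 46155, 81667, 33184 and 39958 in knockouts 1 to 5, against 91649, 22596, 76078, 235292 and 107479 in controls 1 to 5. With the mean acinar level as a covariate, the log2 fold change of Slc38a5 was -0.36 (adjusted p = 0.9999 by limma), against -0.97 without it. The same covariate left Gc at 1.31 and turned Irx2 to -0.27. All 16 acinar markers had lower log2 values in the knockouts, so this covariate varied with the groups. The part of acinar RNA in the Slc38a5 values was not tested.

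The delta cell genes overlapped between the groups. Hhex, on chromosome 19 (37434810 to 37440731, plus strand), encodes a homeodomain transcription factor that mouse delta cells need. It is also made in endothelial and duct cells. It was at 0.0, 43.5, 35.3, 44.1 and 31.1 normalized counts in knockouts 1 to 5, against 23.2, 36.4, 23.1, 15.9 and 81.0 in controls 1 to 5. Knockouts 2 to 5 lay between 31.1 and 44.1, above 3 of the controls, while knockout 1 was listed at 0 and control 5 was the highest library. By limma the log2 fold change came to -0.27 ± 0.71 (SE; adjusted p = 0.978). Its direction turned without knockout 1 (0.24), without control 5 (0.029) and without controls 2 and 5 (0.19).

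Endothelial markers summed to 2795 to 3468 in knockouts and 2336 to 2902 in controls over 8 genes. Duct markers summed to 2929 to 4296 in knockouts and 3342 to 3919 in controls over 7 genes. Most of the duct sum came from Krt18 and Krt7, while Krt19 was at 0.0 to 21.4 in knockouts and 0.0 to 6.2 in controls. The part of endothelial and duct cells in the Hhex values was not tested.

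Rbp4, 675 kb from Hhex on chromosome 19 (38116629 to 38125281, minus strand), encodes the retinol-binding protein of plasma. It is made in liver and fat and, within the islet, chiefly in delta cells. Its normalized counts were 159.0, 260.2, 219.2, 445.4 and 256.0 in knockouts 1 to 5, against 217.2, 257.5, 328.7, 313.4 and 282.6 in controls 1 to 5. The knockouts spanned the controls on both sides, with knockout 1 the lowest and knockout 4 the highest library. The means were 268 ± 107 in knockouts and 280 ± 44.6 in controls (SD, n = 5 each). Limma put the log2 fold change at -0.13 ± 0.33 (SE; adjusted p = 0.978), with 95% limits of -0.83 to 0.58. Per 1000 Sst counts, Rbp4 averaged 26.6 ± 9.03 in knockouts and 26.2 ± 6.54 in controls (SD, n = 5 each).

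Levels were compared between genes per kilobase of merged exons. The medians over 10 libraries were 220 normalized counts per kb for Gc (range 112 to 500), 193 for Rbp4 (118 to 332) and 159 for Slc7a2 (93.2 to 257). These 3 ranges overlap, so their order is not fixed by these data, and the merged exons of Slc7a2, at 9.13 kb, may understate its level. Next came Slc38a5 at 15.0 per kb (0.0 to 107), Fev at 7.45 (0.0 to 23.1), Irx2 at 7.11 (0.0 to 49.5), Hhex at 6.56 (0.0 to 16.0) and Irx1 at 6.42 (0.0 to 21.3), whose ranges also overlap. The order of these 5 is therefore not fixed by these data either. The hormone genes stood far above all 8, with medians of 50159 per kb for Gcg and 13997 for Sst.

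By counts, 3 of the 8 genes had higher and 5 lower log2 values in the knockouts, with a median log2 fold change of -0.20, beside 47.6% higher, 52.4% lower and a median of -0.03 over all 11711 genes. At an unadjusted p under 0.05 by limma there was 1 of 8, Gc, where 5.01% of all genes were called. At an adjusted p under 0.05 there were 0 of 8 and 0 of 11711 (0% called). The groups did not separate for any of the 8, where 0.862% of all genes had groups that did not overlap. An adjusted p under 0.05 stands beside 0.136% of the genes given one in the authors' deposited table, and beside 0 of the 8.

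The other genes of these cell types were read from lists of 21 alpha and 14 delta cell genes, which hold the 8. Gcg was -0.12 ± 0.13 and Sst -0.13 ± 0.11 in log2 fold change (SE), and both turned to values just above 0 without controls 2 and 5. Of the 14 alpha cell genes tested besides the 6 above, 6 had higher and 8 lower values in the knockouts, with a median of -0.13. Of the 8 delta cell genes tested besides Hhex and Rbp4, 5 had higher and 3 lower values, with a median of 0.31. No gene of either list passed the adjusted threshold. The pancreatic polypeptide gene Ppy and the peptide YY gene Pyy were at -0.46 ± 0.36 and -0.16 ± 0.24 (SE).

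Besides Gc, 2 genes of these lists were under an unadjusted p of 0.05, both higher in the knockouts, a direction and threshold met by 2.36% of all genes. Ttr encodes transthyretin, an alpha cell product and the plasma partner of retinol-binding protein. It was at 8586.8, 7003.8, 9669.9, 11814.6 and 10701.4 in knockouts 1 to 5, against 7497.4, 7788.7, 5556.2, 5669.7 and 9449.7 in controls 1 to 5. Knockouts 3, 4 and 5 lay above every control. The log2 fold change of Ttr was 0.42 ± 0.16 (SE; limma, unadjusted p = 0.0179, adjusted p = 0.942). It ran from 0.33 to 0.52 with single libraries left out. With Gcg as a covariate it was 0.54 (limma, unadjusted p = 0.000282, adjusted p = 0.727), a smaller unadjusted p than that of Gc in the same fit. Its unadjusted p by limma was over 0.05 with the acinar covariate (0.0841) and without knockout 4 (0.0567), control 3 (0.0549) or control 4 (0.0541).

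Pdyn encodes prodynorphin, the precursor of dynorphin opioid peptides. It was at 1037.7, 731.1, 672.2, 647.0 and 943.0 in knockouts 1 to 5, against 417.7, 365.8, 507.4, 614.1 and 432.6 in controls 1 to 5. Every knockout lay above the highest control, as for 0.435% of all genes. The log2 fold change was 0.77 ± 0.25 (SE; limma, unadjusted p = 0.00551, adjusted p = 0.942), and 0.64 without controls 2 and 5. It was also 0.64 without controls 2, 3 and 5, where the unadjusted p by limma was 0.0810.

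**Figure D3:**
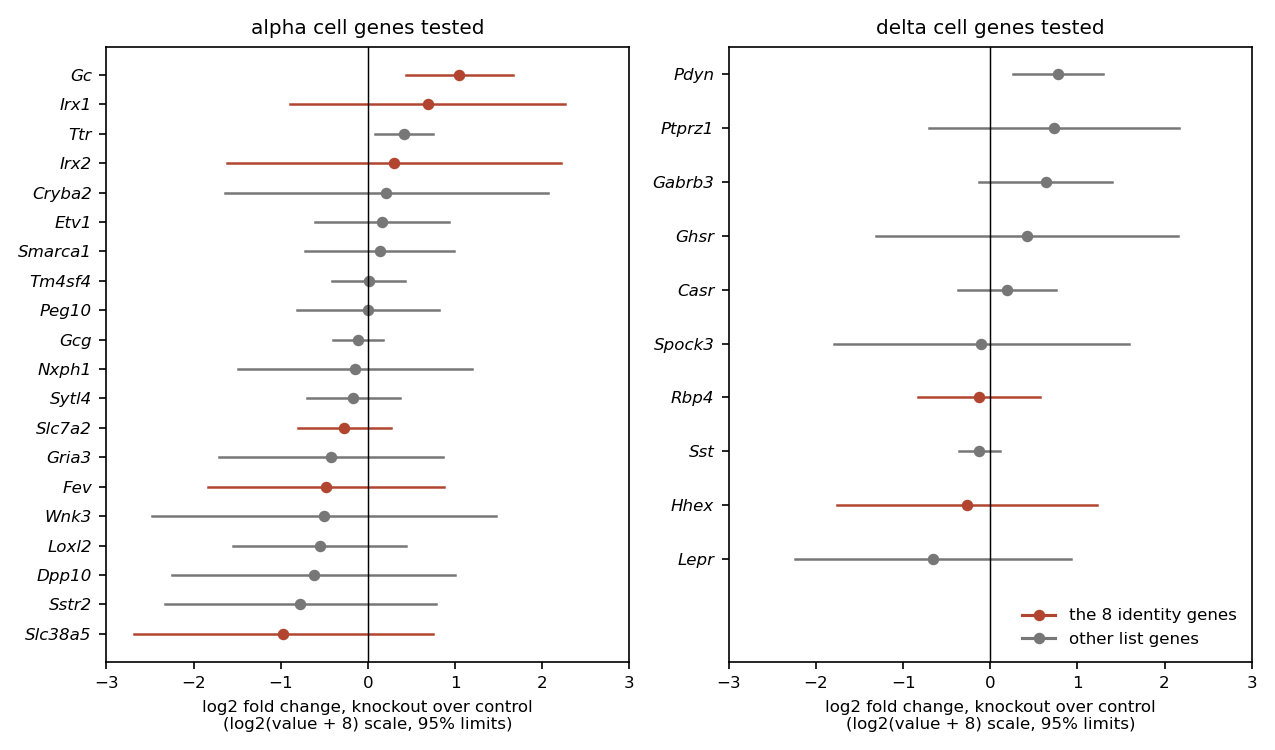
Log2 fold changes, knockout over control, with 95% limits from limma (x axis, log2(value + 8) scale) for the 20 alpha cell and 10 delta cell genes tested, the 8 identity genes in red and the others in grey. The limits of Gc, Ttr and Pdyn lie above 0 and those of the other genes span it.

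**Figure D4:**
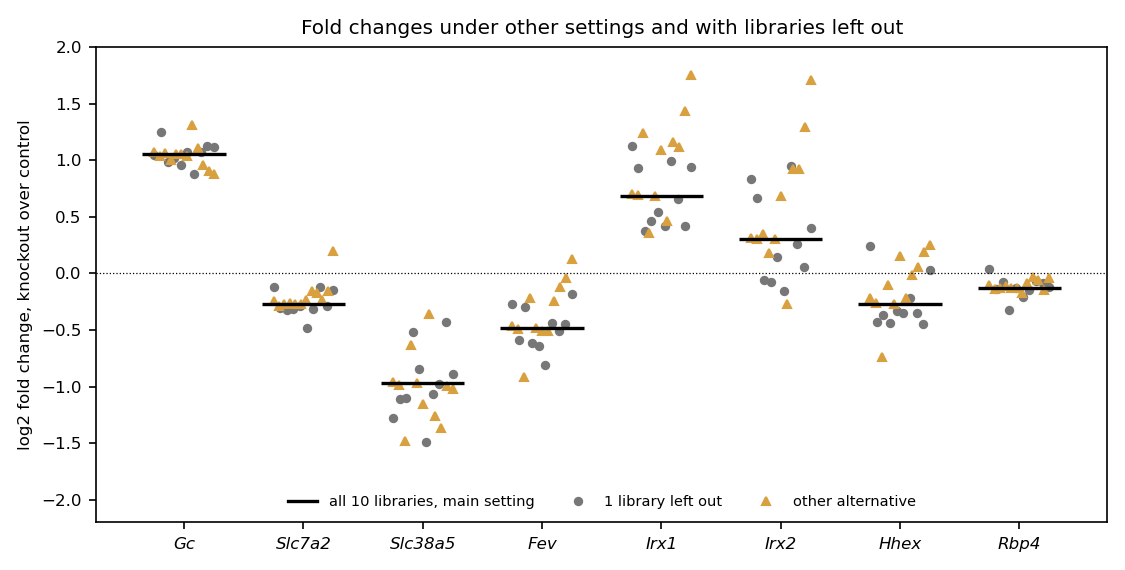
Log2 fold changes of the 8 genes (y axis, knockout over control) over all libraries (line), with 1 library left out (grey points) and under the other alternatives (orange triangles). Gc stays between 0.87 and 1.31, while Irx2, Fev, Slc7a2, Hhex and Rbp4 cross 0 under at least 1 alternative.

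Of the genes that vary most like each of the others, Gc had Syap1 (r = 0.93, rho = 0.95) and Sec11c (r = 0.93, rho = 0.89) over the 10 libraries. Slc38a5 had Gm996 and Epha2 (r = 0.90 for both), and Slc7a2 had Trappc6a (r = 0.96). Fev had Gpn1 (r = 0.98), Hhex had Calcoco1 (r = 0.95) and Rbp4 had Slc10a3 (r = 0.93). These head rankings of 11710 genes over 10 libraries of unequal depth and are given as a description. No pair of the 8 genes but Irx1 and Irx2 headed such a ranking.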

How the data were processed

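The deposited table gives, per gene and library, normalized counts, a signal unit on a common scale that is not whole reads, for 10 islet libraries. Per the submitters' processing notes, the tools were STAR 2.4.0.1 with HTSeq and DESeq2, whose roles are not stated, and no source used here gives the build. The same deposited table holds the authors' log2 fold changes with standard errors, their test score per gene, and their p-values. Of 17946 rows, 1 had no name (0.00774% to 0.0251% of a library) and was left out.

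Between 25.0% and 37.2% of values above 0 were whole multiples of their library's commonest low value, within 0.01 of a multiple, so reads were not recovered and no count model was run. Totals in multiples of that value were 2072840 to 10950991, which limits the precision of low genes. Genes at 10 or more in at least 5 libraries were compared as log2(value + 8), knockout minus control. The comparison used limma 3.58.1 in R 4.3.3 (trend, robust, Benjamini-Hochberg at 0.05 over all genes). It was tried on simulated data in which only genes above the median level were changed. The recovery of changes in lower genes was therefore not checked. The log2(value + 8) scale understates the change of low genes. Where a library is listed at 0, no mean is given. The labels do not say whether libraries came from separate animals, so p-values measure the spread between libraries. Replicate numbers follow the order of the samples.

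The 8 genes, the lists and the alternatives were chosen with earlier results of these data known. Some genes of the alpha cell list are not reported here and stand in none of its counts. Genes named are the 8, 4 hormone genes, list genes under an unadjusted p of 0.05, the 2 genes most correlated with each of the 8 (not all are printed), and genes that check labels or other cell types. GENCODE M21 (GRCm38) gave the positions, and the authors may have used another build. Python 3.11.15 with pandas 2.3.3, scipy 1.17.1 and matplotlib 3.10.9 made the other values.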

Additional observations from a re-analysis of the deposited data

Results flagged for a closer look

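Among 28 sets of 5 libraries examined (14 named genes in each group), 3 had a library far from the other 4 on the log2(value + 8) scale, by a gap over 0.71 of the range (Dixon's 95% value). Chance flags about 1 in 20 such sets. Gc in control 2 (205.8) lay below the other controls (355.1 to 409.9), with a gap of 0.790 of the range. Slc7a2 in knockout 1 (851.4) lay below the other knockouts (1363.3 to 1502.6), with a gap of 0.829. Hhex in knockout 1 (0) lay below the other knockouts (31.1 to 44.1), with a gap of 0.847.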

How the results depend on the processing

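No paired analysis was possible because the labels do not link any knockout to a control. Over 22 alternatives Gc kept its direction, at 0.87 to 1.31, with adjusted p from 0.629 to 0.9999 by limma. No alternative took any of the 8 genes past the adjusted threshold. The number of all genes past it, 0 in the main setting, was 1 without controls 2 and 5 (Esr1) and 4 without controls 2, 3 and 5, and ran from 0 to 1 with single libraries left out. The count under an unadjusted p of 0.05 fell to 390 with the acinar covariate, against 587. The number of the 8 genes under an unadjusted p of 0.05 ran from 1 to 2 with single libraries left out, the second being Slc7a2 without control 1. Over the alpha and delta cell lists the count was 3 in the main setting, and 2 with the acinar covariate and without controls 2, 3 and 5. It ran from 2 to 4 with single libraries left out. With no filter on low values it was 4, where 745 of 17945 genes were under an unadjusted p of 0.05 by limma.

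Directions turned as follows, in log2 fold change, and for none of these was the cause tested. With single libraries left out, Irx2 ran from -0.15 to 0.95, Hhex from -0.44 to 0.24 and Rbp4 from -0.32 to 0.036. The acinar covariate turned Irx2 to -0.27, and quality weights turned Hhex to 0.16. Sst as a covariate turned Hhex to 0.058, Gcg to 0.0092 and Pyy to 0.10, and Gcg as a covariate turned Pyy to 0.019. Without controls 2 and 5, Hhex was 0.19, Gcg 0.030, Sst 0.010 and Pyy 0.11. Without controls 2, 3 and 5, Fev was 0.13, Slc7a2 0.20, Hhex 0.25, Gcg 0.077 and Sst 0.0038. Irx1, Irx2, Fev, Slc38a5 and Hhex gave no value with a minimum of 50. The part of depth in the values of these 5 genes was not tested.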

Other observations

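Of the alpha and delta cell lists, 4 genes with values lay under the filter and were not tested in the main setting. They entered only the fit with no filter on low values, and their results from it are not given here. They were chosen for mention after their values were seen. Prg4, a delta cell gene for a secreted lubricating glycoprotein, was at 56.3, 65.7, 37.0, 19.0 and 0.0 normalized counts in knockouts 1 to 5, against 0.0, 0.0, 1.7, 3.3 and 0.0 in controls 1 to 5. Knockouts 1 to 4 lay above every control and knockout 5 was listed at 0. The authors' deposited table gives Prg4 an adjusted p of 0.196. Pou3f4, an alpha cell transcription factor gene, was at 30.6 in knockout 3 and 32.9 in knockout 4 and listed at 0 in the other 8 libraries. Erbb4, a neuregulin receptor gene of the delta cell list, was at 76.5 in knockout 5 and 0.9 in knockout 2 and listed at 0 in the other 8 libraries. Bche, the butyrylcholinesterase gene of the same list, was at 2.3 in knockout 3 and listed at 0 in the other 4 knockouts, against 2.1, 39.9 and 21.5 in controls 2 to 4 and 0 in controls 1 and 5.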
